A study of Mus musculus with 2 samples.

Results

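The GDNF receptor and stem cell genes of spermatogonia were read in 2 single-cell RNA libraries from mouse testes at postnatal day 7 (PD7). The set comprised 10 genes, chosen by symbol, of the 32285 genes in the tables. These were the ligand *Gdnf*, its receptor genes *Gfra1* and *Ret*, the GDNF target genes *Etv5*, *Id4*, *Lhx1* and *Bcl6b*, and the stem cell genes *Nanos2*, *Eomes* and *Pax7*. The 10 symbols were all found, each with the gene identifier of the annotation. One library came from a control littermate. The other came from a *Brca1* vKO mouse (*Brca1* f/- *Vasa-Cre*), in which Cre under the Vasa promoter deletes exons of the floxed *Brca1* allele in germ cells from the gonocyte stage before birth. The somatic cells of that mouse keep the floxed allele and carry the deleted one. The study asked what becomes of undifferentiated spermatogonia formed without *Brca1*. With 1 library and 1 mouse per genotype, no difference between genotypes could be tested, and each value below describes these 2 libraries.

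GDNF is secreted by somatic cells of the seminiferous tubule and binds GFRA1, a receptor held on the cell surface by a lipid anchor. The bound GFRA1 engages RET, a receptor tyrosine kinase, which signals through SRC family kinases, PI3K and AKT, and RAS and ERK. In the testis this pathway maintains spermatogonial stem cells, and it raises the transcription factors ETV5, BCL6B and LHX1 and the transcription regulator ID4. As spermatogonia differentiate, they lose GFRA1 and gain KIT, the receptor for stem cell factor.

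Levels are given as counts of unique molecular identifiers (UMIs, each a captured RNA molecule) per 1000000 UMIs of the summed cells (CPM). The count is of 3' ends and is not scaled by gene length, so that levels are compared between cells and libraries, not between genes. Germ cells were barcodes with at least 10000 UMIs and a summed *Ddx4* and *Dazl* level of 3 or more UMIs per 10000. This gave 716 germ cells of 5077 retained control cells (14.1%, 33857132 UMIs) and 228 of 8712 retained *Brca1* vKO cells (2.62%, 9052629 UMIs). The median depth was 44839.5 UMIs per control germ cell and 36959.5 per *Brca1* vKO germ cell. *Sall4*, *Mael* and *Lin28a*, germ cell genes that the rule did not use, had 88.9, 208 and 50.2 CPM in the control germ cells and 108, 166 and 32.0 CPM in the *Brca1* vKO germ cells. In the Sertoli-like cells of both libraries they had at most 1.16 CPM. *Brca1* itself had 71.3 CPM in control and 44.2 CPM in *Brca1* vKO germ cells. The deleted exons are internal and the counts are of 3' ends, so this level does not check the deletion. The libraries shared 21 barcode sequences, among them 2 control germ cells.

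The germ cells were ordered by their *Kit* UMIs. Of the control cells, 396 had no *Kit* UMI, 129 had 1 to 2, 63 had 3 to 5 and 128 had 6 or more. Of the *Brca1* vKO cells, 106 had none, 77 had 1 to 2, 33 had 3 to 5 and 12 had 6 or more. The median depth along this order was 40054, 49993, 43438 and 58973 UMIs in the control. In the *Brca1* vKO library it rose at each step, from 32673 to 49745.5 UMIs.

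The genes that stood furthest apart between the libraries were *Pax7* and *Lhx1*, while *Gfra1* differed along the *Kit* order. Their promoters are shown for these reasons, from 250 bases before to 50 bases after the RefSeq start on the gene's strand (GRCm38.p6). RefSeq promoters were held for 8 of the 10 genes. Capitals mark the single E-box CAGCTG, a sequence that reads alike on both strands.
Gfra1, chr19:58455349-58455648, minus strand: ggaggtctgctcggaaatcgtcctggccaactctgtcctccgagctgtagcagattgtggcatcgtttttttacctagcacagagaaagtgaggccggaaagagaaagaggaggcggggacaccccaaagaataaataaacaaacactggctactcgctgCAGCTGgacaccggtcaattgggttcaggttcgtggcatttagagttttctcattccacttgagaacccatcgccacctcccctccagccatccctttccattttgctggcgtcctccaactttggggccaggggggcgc
Lhx1, chr11:84525485-84525784, minus strand: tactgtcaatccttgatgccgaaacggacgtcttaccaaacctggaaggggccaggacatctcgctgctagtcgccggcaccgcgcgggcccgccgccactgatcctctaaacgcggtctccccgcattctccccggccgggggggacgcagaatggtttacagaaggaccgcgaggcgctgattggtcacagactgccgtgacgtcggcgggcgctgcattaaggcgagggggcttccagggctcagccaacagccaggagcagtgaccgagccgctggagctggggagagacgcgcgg
Pax7, chr4:139832919-139833218, minus strand: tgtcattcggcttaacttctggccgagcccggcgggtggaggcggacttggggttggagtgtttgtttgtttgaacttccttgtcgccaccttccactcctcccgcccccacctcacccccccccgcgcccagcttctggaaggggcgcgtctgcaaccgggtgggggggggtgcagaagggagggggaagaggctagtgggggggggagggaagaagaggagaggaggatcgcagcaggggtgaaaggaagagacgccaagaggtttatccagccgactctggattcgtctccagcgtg
The E-box CAGCTG lay in the *Gfra1* window and in 1 of the *Etv5* windows, and 16.3% of all 32851 promoters held it. The ETS site CCGGAAGT, searched on both strands, was in none of the windows of the 8 genes and in 3.89% of all promoters. TATAAA was found in a window of *Gdnf* and, on the opposite strand, in that of *Nanos2*, against 13.6% of all promoters. The windows of *Lhx1* and *Pax7* held none of these letters.

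In control germ cells, the receptor genes were high where *Kit* was low and nearly absent where *Kit* was high. *Gfra1* (chromosome 19, 58235604 to 58455909, minus strand) had 222 CPM in cells without a *Kit* UMI (95% Poisson interval 215 to 230), 211 CPM with 1 to 2 *Kit* UMIs, 91.0 CPM with 3 to 5 and 9.51 CPM (7.47 to 11.9) with 6 or more. The last was 0.0428 of the first (0.0335 to 0.0538). The first 2 classes did not differ beyond counting error, and the level then fell by steps.

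*Ret* (chromosome 6, 118151745 to 118197718, minus strand), the kinase subunit, had 94.9, 87.6, 27.5 and 5.40 CPM in the same order. Its ratio of the last to the first class was 0.0569 (0.0408 to 0.0772). *Gfra1* and *Ret* thus stepped down between the same classes.

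The target genes followed. *Etv5* (chromosome 16, 22381309 to 22439719), an ETS transcription factor, had 55.3, 59.9, 21.6 and 9.12 CPM. *Id4* (chromosome 13, 48261228 to 48266026), which blocks DNA binding by helix-loop-helix factors, had 58.4, 60.4, 20.6 and 4.50 CPM. *Lhx1* (chromosome 11, 84518284 to 84525535), a homeodomain factor, had 21.2, 24.9, 4.47 and 0.771 CPM. Each was lowest in the class of highest *Kit*. *Bcl6b* (chromosome 11, 70224128 to 70229798), a zinc finger repressor, had 9.76, 10.0, 3.78 and 1.54 CPM.

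The stem cell genes were rare in the control library and followed the same order. *Nanos2* (chromosome 7, 18987400 to 18988962), an RNA-binding protein that holds male germ cells undifferentiated, had 4.58, 3.65, 0 and 0.129 CPM. *Pax7* (chromosome 4, 139737062 to 139833528), a paired box factor best known from muscle satellite cells and also found in rare spermatogonia, had 4.10, 3.50, 3.43 and 0.386 CPM. *Eomes* (chromosome 9, 118478212 to 118486132), a T-box factor, had 2.41, 1.52, 0.687 and 0.257 CPM. The whole of the control signal for these 3 genes was 101, 104 and 54 UMIs in 716 cells.

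Of the 9 genes of the set with at least 50 UMIs in both classes together, 8 were at least 2-fold lower in control cells with 6 or more *Kit* UMIs than in those with none, and 0 were 2-fold higher. Among all 13614 genes tested in this way, 7.79% were 2-fold lower and 6.33% were 2-fold higher. The exception was *Gdnf*, with 2.41 and 2.83 CPM. The median log2 ratio was -1.54 over the 9 genes and 0.05 over all genes, with a pseudocount of 10 CPM, which draws low genes towards 0. Since the classes hold cells of 1 library, the counting intervals do not cover differences between mice.

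In the *Brca1* vKO germ cells, the ratios between the outer *Kit* classes lay on both sides of 1, with 5 of the 10 genes below it, and each interval included 1. *Gfra1* had 299 CPM (281 to 317) without a *Kit* UMI, 332 CPM with 1 to 2, 361 CPM with 3 to 5 and 339 CPM (294 to 388) with 6 or more. The ratio of the last to the first was 1.13 (0.974 to 1.32), where the control had 0.0428. *Ret* had 107, 123, 127 and 81.9 CPM in this order. *Gfra1* was found in 11 of the 12 *Brca1* vKO cells with 6 or more *Kit* UMIs and in 25 of the 128 control cells of that class (19.5%).

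*Lhx1* had 124, 134, 159 and 108 CPM along the *Kit* order of the *Brca1* vKO library, *Id4* had 108, 113, 128 and 116 CPM, and *Etv5* had 80.8, 74.9, 93.3 and 81.9 CPM. *Bcl6b* had 43.9, 27.6, 38.1 and 35.3 CPM. *Pax7* had 34.9, 48.6, 43.8 and 49.8 CPM and *Eomes* 4.09, 10.3, 9.53 and 9.63 CPM. For *Pax7*, *Eomes* and *Id4*, as for *Gfra1*, the lowest of the 4 values was that of the cells without *Kit*. *Nanos2*, with 57 UMIs in all, had 7.37, 6.90, 4.45 and 1.61 CPM, the last resting on 1 UMI.

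Of 7 genes of the set with at least 50 UMIs in the 2 outer classes of the *Brca1* vKO library, 0 were 2-fold higher and 0 were 2-fold lower in cells with 6 or more *Kit* UMIs. Of all 8888 genes tested, 1.19% were 2-fold higher and 6.27% 2-fold lower. The upper class held only 12 cells. With all cells of 3 or more *Kit* UMIs pooled, *Lhx1* had 19 UMIs in 6 of 191 control cells, or 1.78 CPM (1.07 to 2.77), and 317 UMIs in 41 of 45 *Brca1* vKO cells, or 144 CPM (129 to 161). *Gfra1* had 31.7 CPM in these control cells and 354 CPM in the *Brca1* vKO cells. *Pax7* was present in 6 of the 191 control cells and in 25 of the 45 *Brca1* vKO cells.

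**Figure D1:**
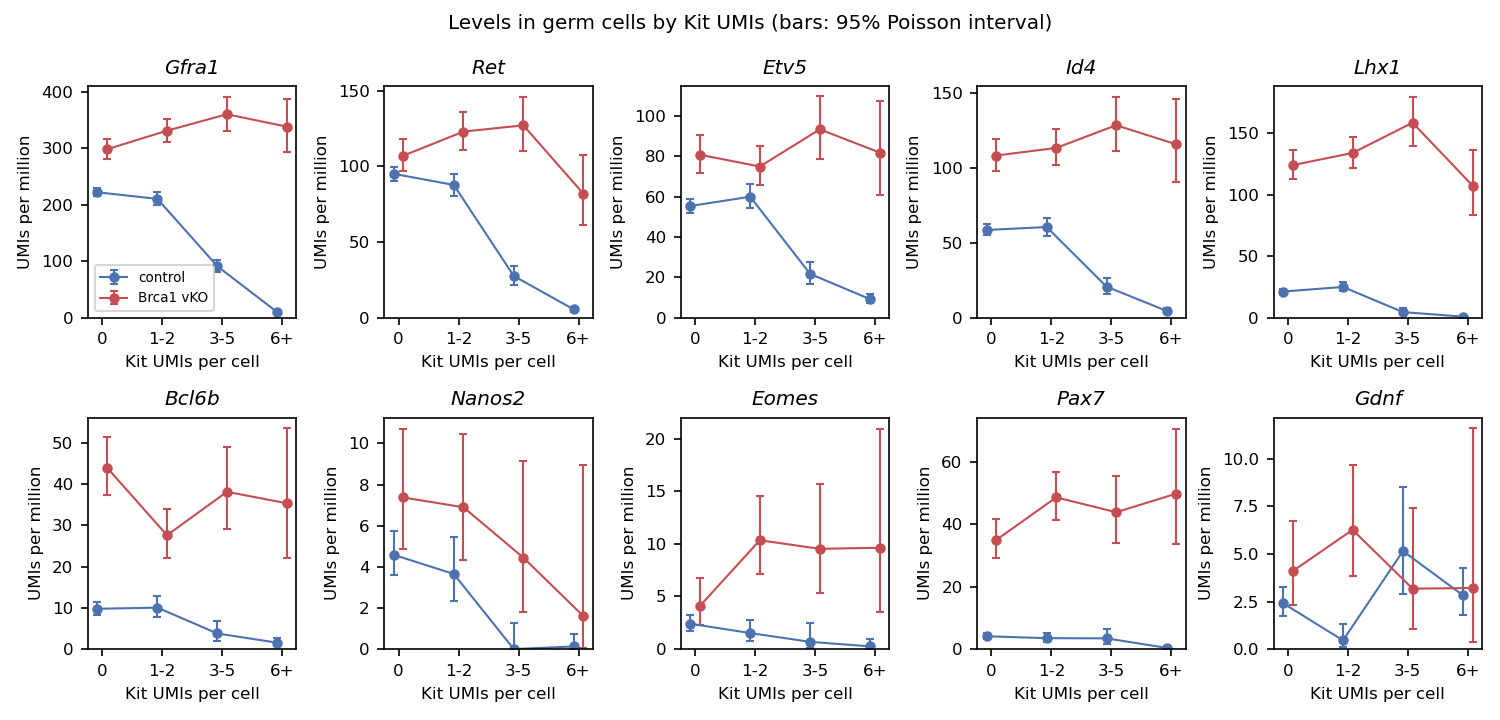
Level of each gene (CPM, linear axis from 0) in germ cells with 0, 1 to 2, 3 to 5 and 6 or more *Kit* UMIs, in the control (blue) and *Brca1* vKO (red) libraries, with 95% Poisson intervals. In the control, *Gfra1* falls from 222 to 9.51 CPM and *Ret* from 94.9 to 5.40 CPM, whereas the *Brca1* vKO library has 299 and 339 CPM of *Gfra1* at the ends of the order.

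The *Kit*-bearing cells of the 2 libraries also differed in other genes. In cells with 3 or more *Kit* UMIs, *Stra8*, a gene induced by retinoic acid at the start of differentiation, had 348 CPM in the control against 91.9 CPM in the *Brca1* vKO library. *Dmrtb1*, a regulator of the exit from the spermatogonial phase, had 39.4 and 3.64 CPM, and *Sox3*, a marker of progenitor spermatogonia, had 60.3 and 7.73 CPM. *Kit* itself had 169 and 102 CPM. The cells of a *Kit* class were therefore not alike in the 2 libraries, and how far this bears on the levels of *Gfra1* and its companions was not tested.

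Among germ cells without a *Kit* UMI, *Pax7*, *Lhx1* and *Bcl6b* were several times higher in the *Brca1* vKO library and the receptor genes only slightly higher. These cells, too, were not alike in the 2 libraries. *Sox3* had 39.5 CPM in the control against 9.28 CPM in the *Brca1* vKO cells, and *Stra8* had 50.5 and 24.0 CPM. How far this bears on the ratios below was not tested. *Pax7* had 4.10 CPM in the control against 34.9 CPM in the *Brca1* vKO cells, with a ratio of 8.52 (exact conditional interval 6.30 to 11.6). *Lhx1* had 21.2 and 124 CPM, with a ratio of 5.85 (5.08 to 6.75), and *Bcl6b* 9.76 and 43.9 CPM, with a ratio of 4.50 (3.60 to 5.63). Of 13051 genes tested, 15 had a higher ratio than *Pax7*, 28 than *Lhx1* and 47 than *Bcl6b*.

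*Id4* was 1.85-fold higher (1.64 to 2.08) and *Etv5* 1.46-fold higher (1.28 to 1.67). The ratio was 1.34 (1.25 to 1.44) for *Gfra1* and 1.13 (1.01 to 1.26) for *Ret*. For *Nanos2*, *Eomes* and *Gdnf* the ratios were 1.61, 1.70 and 1.70, and each of these intervals included 1. In all, 3 of the 10 genes were at least 2-fold higher and 0 were 2-fold lower, while 3.04% of all genes tested were 2-fold higher and 5.2% were 2-fold lower. The median log2 ratio was 0.44 for the 10 genes and -0.0067 for all genes.

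Over all germ cells, whatever their *Kit*, the ratios were larger. They were 13.8 for *Pax7*, 8.39 for *Lhx1*, 4.93 for *Bcl6b*, 2.64 for *Id4*, 2.03 for *Gfra1*, 1.90 for *Etv5* and 1.70 for *Ret*. The rarer genes had 4.78 (3.30 to 6.95) for *Eomes*, 2.11 for *Nanos2* and 1.96 (1.32 to 2.89) for *Gdnf*, and all 3 intervals lay above 1. For *Gdnf*, 1 *Brca1* vKO cell held 10 or more of the 42 UMIs. Cells with 6 or more *Kit* UMIs, which have little of these genes in the control, made up 17.9% of the control and 5.26% of the *Brca1* vKO germ cells. The 2 pools thus differ in their mixture of germ cells.

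Germ cells rich in *Gfra1*, by their raw *Gfra1* UMIs, were set against each other. There were 262 control and 171 *Brca1* vKO germ cells with 6 or more *Gfra1* UMIs, at median depths of 45867 and 39235 UMIs. The same count stands for a higher level in a shallower cell, so the *Gfra1* level was only roughly matched. Among them *Ret* had 136 and 124 CPM, with a ratio of 0.912 (0.841 to 0.989), on the other side of 1 from the ratio in cells without *Kit*. *Etv5* had 80.7 and 86.7 CPM, with a ratio of 1.08 (0.972 to 1.19), and *Nanos2* 5.60 and 6.18 CPM, with a ratio of 1.10 (0.742 to 1.62). For these 3 genes the libraries lay close together or, for *Ret*, turned in direction.

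The other genes of the set stayed higher among *Gfra1*-rich cells, whereas stem cell markers outside the set lay on both sides of 1, as given below. *Lhx1* had 38.4 CPM in the control against 145 CPM in the *Brca1* vKO cells, with a ratio of 3.78 (3.40 to 4.22), and it was found in 44.3% and 90.1% of the cells. *Pax7* had 5.84 and 46.3 CPM, with a ratio of 7.93 (6.16 to 10.3), in 14.9% and 59.1% of the cells. The ratio was 2.35 (1.95 to 2.84) for *Bcl6b*, 2.25 (1.51 to 3.37) for *Eomes* and 1.46 (1.33 to 1.60) for *Id4*. For *Gdnf* it was 3.18 (1.79 to 5.79), on 20 and 36 UMIs. A single *Brca1* vKO cell held 10 or more of these 36 UMIs, which the interval does not cover. The germ cells also carried Sertoli markers, as given below, and their part in this *Gdnf* level was not tested. *Kit*, too, was higher in the *Gfra1*-rich cells of the *Brca1* vKO library, with 37.1 CPM against 11.4 CPM, with a ratio of 3.24 (2.64 to 3.99). *Sox3* was lower there, with 6.31 against 15.4 CPM, with a ratio of 0.410.

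Among the cells with 1 to 5 *Gfra1* UMIs, 146 in the control against 42 in the *Brca1* vKO library, *Lhx1* had 4.37 and 98.0 CPM. Their median depths were 46981.5 and 33728 UMIs, so this count, too, stands for a higher level in the *Brca1* vKO cells. In the control, *Lhx1* was tied to high *Gfra1* counts, with 38.4 CPM in the *Gfra1*-rich cells. The *Brca1* vKO cells with 1 to 5 *Gfra1* UMIs had most of the *Lhx1* level of the rich ones. *Pax7* had 1.77 and 31.5 CPM in these cells and *Bcl6b* 4.64 and 41.7 CPM.

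**Figure D2:**
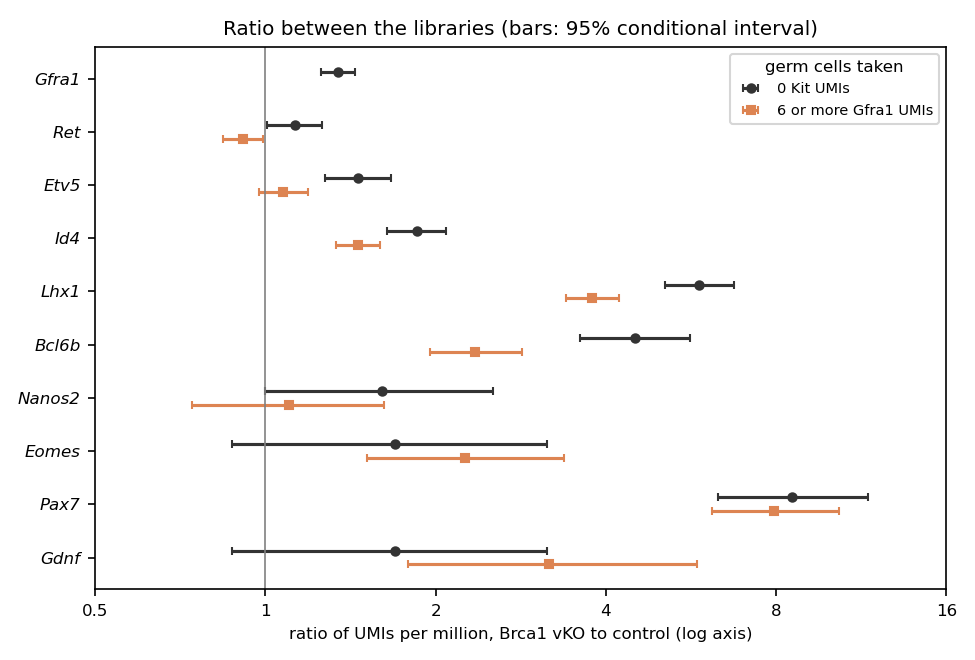
Ratio of *Brca1* vKO to control CPM (log axis) in germ cells without a *Kit* UMI (black) and with 6 or more *Gfra1* UMIs (orange), with 95% exact conditional intervals; *Gfra1* is not shown for the cells it selects. *Pax7* (8.52 and 7.93) and *Lhx1* (5.85 and 3.78) lie far right of 1 in both, and *Ret* lies on either side of 1 (1.13 and 0.912).

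The differences lay in many cells and not in a few. At least 1 *Pax7* UMI was found in 62 of 716 control germ cells (8.66%, Clopper-Pearson interval 6.70 to 10.96) and in 120 of 228 *Brca1* vKO germ cells (52.6%, 45.9 to 59.3). The top cell held 5.77% of the *Pax7* UMIs in the control against 4.44% in the *Brca1* vKO library. *Pax7* thus marked a minority of control and a majority of *Brca1* vKO germ cells at these depths.

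*Lhx1* was found in 19.6% of control and 82.9% of *Brca1* vKO germ cells, and *Bcl6b* in 18.0% and 55.7%. In 11 control cells (of 716) and 40 *Brca1* vKO cells (of 228), *Lhx1* had 10 or more UMIs. *Gfra1* was found in 57.0% and 93.4%, *Ret* in 62.3% and 91.2%, *Id4* in 58.8% and 90.8%, and *Etv5* in 61.0% and 85.1%. *Nanos2* and *Eomes* were sparse in both, with 11.03% and 21.1% for *Nanos2* and 5.03% and 17.1% for *Eomes*.

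As the libraries differed in depth, each germ cell was also thinned to 10000 UMIs, with none left out. The shares were then 42.6% and 85.5% for *Gfra1*, 9.78% and 62.7% for *Lhx1*, 5.59% and 29.4% for *Bcl6b*, and 3.35% and 28.5% for *Pax7*. For *Ret* they were 36.5% and 59.6%, for *Id4* 29.2% and 65.4%, and for *Etv5* 29.5% and 48.7%. *Nanos2* had 3.63% and 5.70%, and *Eomes* 2.09% and 3.51%. The *Brca1* vKO share was the higher for each of these genes at equal depth. For *Nanos2* and *Eomes* the intervals of the shares overlapped in this random draw but not in a second one, which gave 3.21% and 9.65% for *Nanos2* and 1.26% and 6.14% for *Eomes*. The exact mean over all draws was 3.03% and 6.49% for *Nanos2* and 1.62% and 6.14% for *Eomes*. The counts of genes per cell and of pairs with *Gfra1* rest on the second draw.

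Free RNA can put a UMI into a cell that does not express a gene, and Sertoli-like cells served as the background. At median depths of 18277.5 and 15773 UMIs, 0.674% of control and 0.947% of *Brca1* vKO Sertoli-like cells had a *Gfra1* UMI, 0.104% and 0.162% an *Lhx1* UMI, and 0.104% and 0.135% a *Pax7* UMI. Thinned to the same 10000 UMIs, with 216 and 384 Sertoli-like cells left out as too shallow, the shares for *Lhx1* were 0.0584% and 0.0604%, and for *Pax7* 0% and 0.0604%. *Nanos2* was found in 0 of 1928 Sertoli-like cells of the control, and this count allows up to 0.156% of cells. The germ cell shares of these genes lay far above this background in both libraries.

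**Figure D3:**
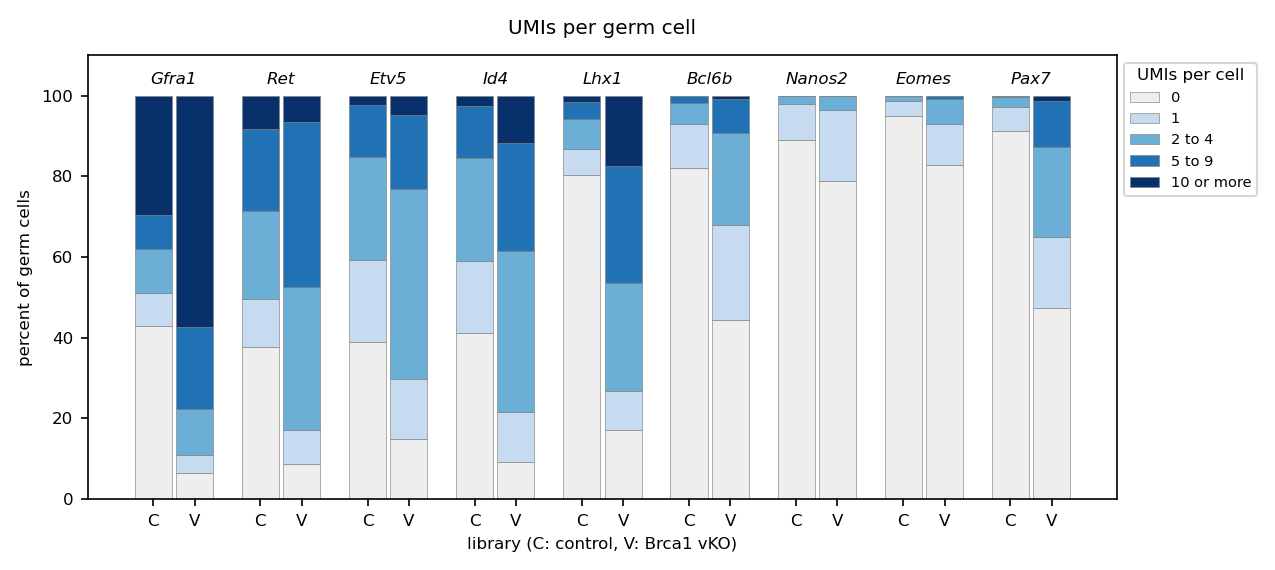
Share of germ cells (percent) by the number of UMIs of each gene per cell, in the control (C, 716 cells) and *Brca1* vKO (V, 228 cells) libraries, before thinning. Cells without a UMI make up the pale part of each bar, which is larger in the control for each of the 9 genes, as for *Pax7* with 654 of 716 against 108 of 228 cells.

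The rarer genes of the set were also read together, cell by cell. *Lhx1*, *Bcl6b*, *Nanos2*, *Eomes* and *Pax7* were counted together in germ cells thinned to 10000 UMIs. None of the 5 was found in 583 of 716 control cells (81.4%) and in 55 of 228 *Brca1* vKO cells (24.1%). At least 2 were found in 33 control cells (4.61%) and in 91 *Brca1* vKO cells (39.9%). Among cells with a *Gfra1* UMI at that depth, the same count gave 31 of 306 (10.1%) and 80 of 184 (43.5%). No cell held all 5. Higher shares of the single genes by themselves raise the count of cells with at least 2. Whether the genes met more often than their single shares give was not tested.

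The pairing with *Gfra1* was also read in the thinned cells. In thinned control cells, *Lhx1* was found in 23.5% of 306 cells with *Gfra1* and in 1.22% of 410 cells without it. In the *Brca1* vKO library the shares were 64.7% of 184 and 27.3% of 44. *Id4* was in 42.5% and 16.6% of the control cells with and without *Gfra1*, and in 62.5% and 61.4% of the *Brca1* vKO cells. *Ret* was in 67.3% and 15.1% of the control and in 73.9% and 34.1% of the *Brca1* vKO cells. For *Id4*, the *Brca1* vKO shares with and without *Gfra1* did not differ beyond counting error. Before thinning, however, 308 of 716 control and only 15 of 228 *Brca1* vKO germ cells had no *Gfra1* UMI. Most of the 44 *Brca1* vKO cells without *Gfra1* had thus lost it in the draw. How far this narrows the contrast in that library was not tested.

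The reverse held for *Kit*, which was in 10.1% of control cells with *Gfra1* and 38.8% of those without. In the *Brca1* vKO library it was in 27.2% and 27.3%, with the same limit of the draw. Across single control germ cells, the log of UMIs per 10000 of *Gfra1* had a Pearson correlation of -0.41 with *Kit* and -0.49 with *Sox3*, over 716 cells of 1 library that also share their depth. In the 228 *Brca1* vKO cells these were 0.14 and -0.13.

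Of the other genes of the set, *Ret* was the most like *Gfra1* across control germ cells, with a correlation of 0.77, followed by *Etv5* (0.65), *Id4* (0.55), *Lhx1* (0.50) and *Bcl6b* (0.34). In the *Brca1* vKO cells the values were 0.47, 0.28, 0.17, 0.36 and -0.02. Outside the set, the genes most like *Gfra1* in the control were *Kcnc2* (0.87), *Zdhhc14* (0.69), *Plxdc2* (0.69), *Glis3* (0.68), *Med14* (0.68), *Foxc2* (0.67), *Fyn* (0.66), *Helz* (0.66), *Scmh1* (0.66) and *Smoc2* (0.65). *Kcnc2*, which encodes a potassium channel, was also close to *Gfra1* in the *Brca1* vKO cells (0.65), as were *Glis3* (0.64) and *Scmh1* (0.58). *Foxc2*, a forkhead factor of quiescent spermatogonial stem cells, had 0.23 there. Cells of a narrower range of states give lower correlations, so the 2 sets of values are not compared further.

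Other genes of the GDNF pathway, together with further stem cell markers, were read from a list of 51 genes. In germ cells without a *Kit* UMI, 41 of them had at least 50 UMIs, of which 8 were at least 2-fold higher and 2 at least 2-fold lower in the *Brca1* vKO library. The 8 consisted of 7 of 11 feedback and response genes and 1 of 8 further stem cell markers, and their share of the list can be read against the 3.04% given above. The median log2 ratio was 0.89 for the 11 response genes and -0.05 for 18 adaptors and kinases.

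The 7 response genes past 2-fold higher were the feedback inhibitors *Spry4* and *Spry1*, the cyclin gene *Ccnd2* and the transcription factor genes *Egr2*, *Egr3*, *Etv4* and *Pou3f1*. *Spry4*, an inhibitor of receptor tyrosine kinase signalling, had 7.96 CPM in the control against 23.2 CPM in the *Brca1* vKO library, with a ratio of 2.92 (2.19 to 3.86). *Spry1*, of the same family, had 13.1 and 33.8 CPM. *Ccnd2*, which encodes a D-type cyclin, had 217 and 609 CPM, with a ratio of 2.80 (2.66 to 2.95). *Egr2* and *Egr3*, zinc finger factors induced early after receptor activation, had ratios of 2.60 and 2.59.

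*Etv4*, an ETS factor related to *Etv5*, was 2.45-fold higher (2.05 to 2.93), and *Pou3f1*, a POU factor in the GDNF response of spermatogonia, was 2.27-fold higher (2.05 to 2.53). *Dusp6*, a phosphatase of ERK, had a ratio of 1.86 and *Spry2* of 1.13. *Mycn* and *Foxo1*, both transcription factors, were lower, with ratios of 0.637 and 0.596. The list thus did not move as a block.

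**Figure D4:**
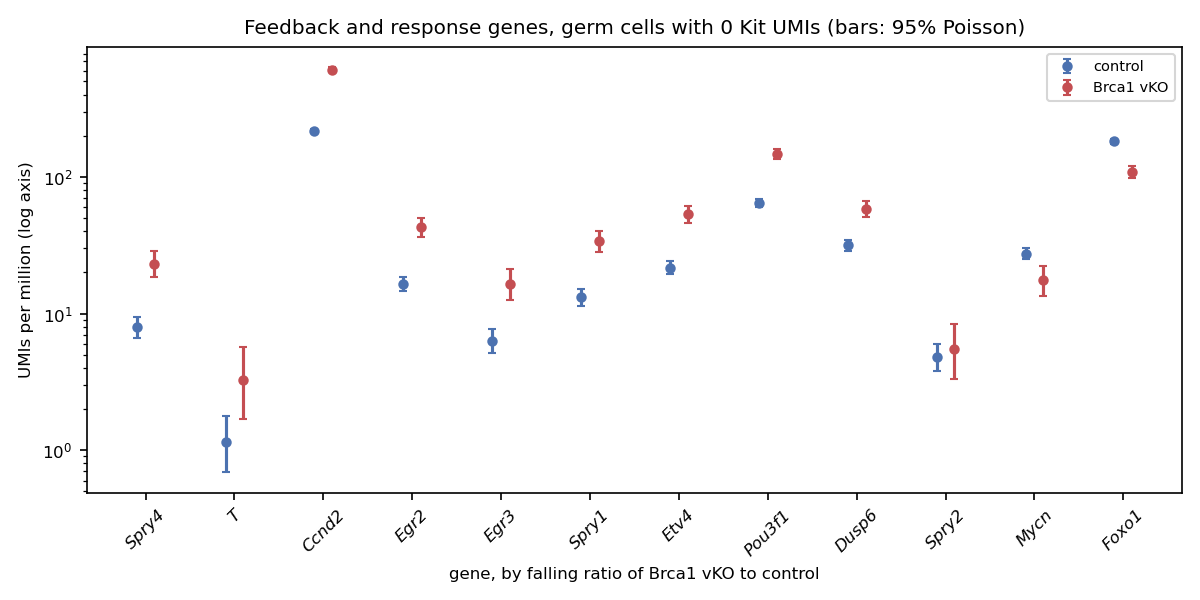
Levels (CPM, log axis) of 12 feedback and response genes of the GDNF pathway in germ cells without a *Kit* UMI, in the control (blue) and *Brca1* vKO (red) libraries, with 95% Poisson intervals; T had fewer than 50 UMIs and was not counted. *Spry4* (7.96 and 23.2 CPM) and *Ccnd2* (217 and 609 CPM) are higher in the *Brca1* vKO library, and *Foxo1* and *Mycn* lower.

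Among the *Gfra1*-rich germ cells most of these response genes had smaller ratios, and *Egr3* a larger one. The ratio was 2.55 (2.09 to 3.11) for *Spry1*, 3.11 (2.36 to 4.11) for *Egr3*, 2.02 (1.94 to 2.11) for *Ccnd2* and 2.07 (1.90 to 2.26) for *Pou3f1*, but 1.93 for *Spry4*, 1.82 for *Etv4*, 1.74 for *Egr2* and 1.38 (1.21 to 1.56) for *Dusp6*. In Sertoli-like cells, another cell type, 1 of 10 response genes tested was 2-fold higher and 0 were 2-fold lower. The higher gene was *Spry1*, with a ratio of 2.02 on 1.54 and 3.12 CPM. Of all genes tested there, 1.16% were higher and 0.873% lower by that measure. *Egr3* had a ratio of 1.75 in these cells, and the other 8 lay between 0.810 and 1.14. Whether the levels of the response genes in germ cells depend on GFRA1 and RET was not tested.

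Early response genes outside the pathway were also higher in the *Brca1* vKO germ cells without *Kit*. These 7 genes were chosen after the data were seen. The ratios were 2.04 for *Junb* and 1.95 for *Ier2*, and between 1.44 and 1.53 for *Fos*, *Fosb*, *Jun*, *Egr1* and *Atf3*. In Sertoli-like cells they were between 1.11 and 1.43. Such genes, *Egr2* and *Egr3* among them, can rise when tissue is handled, and the part of this in the levels was not tested.

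In the rest of the list, 1 stem cell marker was past 2-fold higher, and 0 ligand, receptor, adaptor or kinase genes were. Past 2-fold lower were 1 receptor gene and 1 gene of the adaptors and kinases. *Shisa6*, a marker of undifferentiated spermatogonia, was 2.70-fold higher (2.26 to 3.23) in *Brca1* vKO germ cells without *Kit*, with 20.5 and 55.4 CPM. Sertoli-like cells had more of it, 126 CPM in the control and 154 CPM in the *Brca1* vKO library. In control germ cells it hardly changed with *Kit*, at 19.8 CPM with 6 or more *Kit* UMIs. Among germ cells without *Kit*, *Foxc2* had a ratio of 0.998, *Cd9* 0.980, *Sall4* 1.08 and *Zbtb16* 0.567. It was 0.634 for *Tspan8*, 1.30 for *Plvap* and 1.49 for *Epha2*. Among *Gfra1*-rich germ cells, *Foxc2* (0.711, 0.611 to 0.825), *Tspan8* (0.681), *Zbtb16* (0.636) and *Cd9* (0.855) were lower, with intervals below 1. There *Shisa6* (2.41) and *Epha2* (1.90) were higher, and the intervals of *Sall4* and *Plvap* included 1. The 2 genes past 2-fold lower in germ cells without *Kit* were *Gfra3*, the receptor of the related ligand artemin, and *Pik3r1*, a regulatory subunit of PI3K. *Gfra3* had 82 UMIs in the control cells and 1 in those of the *Brca1* vKO library (ratio 0.0552, 0.00138 to 0.316). *Pik3r1* had 41.1 and 15.8 CPM. *Fyn*, an SRC family kinase, had a ratio of 1.51.

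The list was also read along the *Kit* order of the control library. In cells with 6 or more *Kit* UMIs, 13 of 43 listed genes tested were at least 2-fold lower and 2 at least 2-fold higher. All genes tested had 7.79% and 6.33%. Of the 13, 5 were among 8 stem cell markers, 5 among 11 response genes and 3 among 20 adaptors and kinases. Stem cell markers mark cells early in this order, so the count does not describe the GDNF pathway alone. The lowest ratios were those of the stem cell markers *Foxc2* (0.0495), *Tspan8* (0.0833) and *Plvap* (0.0872). The response genes *Dusp6* (0.167), *Spry4* (0.178) and *Egr2* (0.226) followed. *Nrtn* (2.30) and *Akt1* (2.27) were the 2 higher genes. In the *Brca1* vKO library, 0 of 36 listed genes tested were past 2-fold in either direction, and of all genes 1.19% were higher and 6.27% lower.

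The ligand *Gdnf* (chromosome 15, 7810846 to 7837575) was read in somatic classes, to which cells were assigned by marker scores. It was highest in Sertoli-like cells, named from Sertoli cell markers such as *Amh*, *Dhh* and *Fshr*. There it had 1902 UMIs in 1928 control cells, or 38.1 CPM (36.4 to 39.9), and 4716 UMIs in 3695 *Brca1* vKO cells, or 51.0 CPM (49.6 to 52.5). The ratio was 1.34 (1.27 to 1.41). A *Gdnf* UMI was found in 43.6% of control and 51.0% of *Brca1* vKO Sertoli-like cells, and after thinning in 26.8% and 33.2%.

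Leydig-like cells had 26.7 CPM (19.2 to 36.2) in the control and 21.2 CPM (16.7 to 26.4) in the *Brca1* vKO library. Myoid-like cells, the contractile cells around the tubule, had 12.02 (9.67 to 14.8) and 11.2 (9.39 to 13.1) CPM, and stromal-like cells 4.75 CPM in both. Within each of these 3 classes the interval of the ratio included 1. Cells that no class score placed had 30.8 (27.3 to 34.7) and 36.0 (33.2 to 39.0) CPM, the second highest level in both libraries, with 275 and 609 UMIs. Endothelial-like cells had 24.8 CPM (17.4 to 34.1) in the control. In the control, the unplaced, Leydig-like and endothelial-like cells had overlapping intervals, below that of Sertoli-like and above that of myoid-like cells, and stromal-like cells lay below the myoid-like.

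The endothelial-like level rested on 37 *Gdnf* UMIs in the control against 40 in the *Brca1* vKO library, of which 1 cell held 32.4% and 55.0%. The 76 control cells of this class also had 103 CPM of *Gfra1* and 85.7 CPM of *Id4*, with 39.0% and 28.1% of the UMIs in 1 cell. Pericyte-like and macrophage-like cells had at most 5 *Gdnf* UMIs in a library. Germ cells had 2.36 CPM in the control against 4.64 CPM in the *Brca1* vKO library, in 44 and 21 cells, with 1 *Brca1* vKO cell holding 28.6% of the UMIs. The germ cells also carried the 7 Sertoli markers, none at 0, at 432 and 411 CPM in sum.

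**Figure D5:**
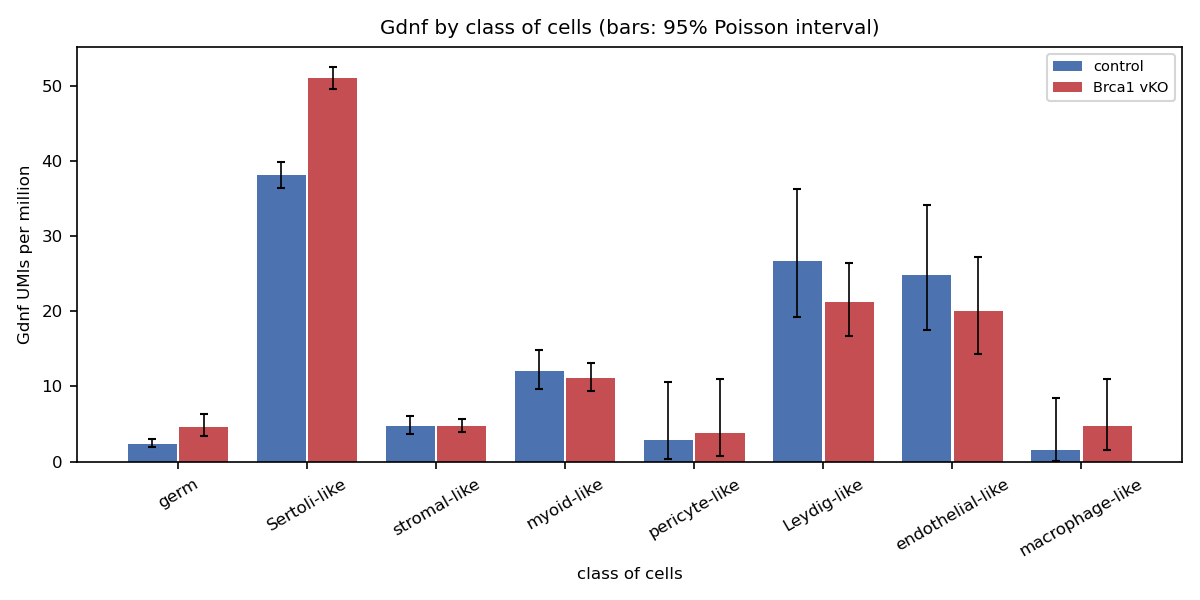
*Gdnf* level (CPM, bars from 0) by class of cells in the control (blue) and *Brca1* vKO (red) libraries, with 95% Poisson intervals; neutrophil-like cells, 7 in the control, are left out. Sertoli-like cells have the highest level in both libraries, 38.1 and 51.0 CPM, and germ cells have 2.36 and 4.64 CPM.

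Other genes of the set had levels outside germ cells. *Etv5* was present in Sertoli-like cells at 29.2 CPM (27.7 to 30.7) in the control and 44.1 CPM (42.8 to 45.5) in the *Brca1* vKO library, with a ratio of 1.51 (1.42 to 1.61). Stromal-like cells had 26.6 and 25.3 CPM of *Etv5* and myoid-like cells 29.0 and 33.4 CPM, and for both the interval of the ratio included 1. *Id4* was present in myoid-like cells at 31.8 and 33.3 CPM and in pericyte-like cells at 27.6 and 37.7 CPM. *Bcl6b* had 33.5 and 28.0 CPM in endothelial-like cells, where it is known to be expressed.

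*Ret* had at most 17 UMIs in any somatic class of either library. *Lhx1*, *Nanos2*, *Eomes* and *Pax7* had at most 8 UMIs in any of them, against 54 or more in the germ cells of each library.

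Beside the differences in germ cells, the RNA of other cells was not equal between the libraries. In germ cells without a *Kit* UMI, the 7 Sertoli markers summed to 525 CPM in the control against 606 CPM in the *Brca1* vKO library, the 6 stromal markers to 147 and 296 CPM, the 6 myoid markers to 158 and 166 CPM, and the 6 endothelial markers to 29.1 and 49.1 CPM. The 6 neutrophil markers summed to 1.57 and 21.8 CPM there. With germ cells that also scored for a somatic class removed, *Pax7*, *Lhx1* and *Bcl6b* had ratios of 7.88, 6.32 and 4.07, beside 8.52, 5.85 and 4.50 with them. The median mitochondrial share was 5.58% and 5.90%. Over all germ cells, the neutrophil markers summed to 3.22 and 220 CPM. The 6 Leydig markers summed to 6.99 and 9.55 CPM in germ cells without *Kit*. In those with 6 or more *Kit* UMIs they summed to 73.0 and 3.21 CPM. Leydig-like cells themselves had 211 and 171 CPM of *Kit*. How far Leydig RNA placed control cells in the upper *Kit* class was not tested. Antisense genes overlap *Gfra1*, *Id4*, *Nanos2* and *Eomes*, and whether counting used the strand is not stated in the sources used here. In control germ cells *Gm33460*, which overlaps *Eomes*, had 11 UMIs beside 54 of *Eomes*, and the others had at most 6 UMIs.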

How the data were processed

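The 2 libraries, 1 per genotype, were made by the authors with a droplet method, and the deposited values are raw UMI counts per gene and barcode from Cell Ranger 6.0.2 on mm10, not normalized. The strand setting of the counting is not given in the sources used here. Barcodes with at least 750 genes and at most 10% mitochondrial UMIs were retained, as in the study's methods. The tables held 120568700 UMIs in 5812 control barcodes and 165062097 in 9456 *Brca1* vKO barcodes. Counts were summed per library and cell group. Intervals are exact (Poisson, conditional, Clopper-Pearson) at 95%, computed with scipy 1.17.1. They and the limits behind a count of 0 (3 counts) cover counting error only, not mice or the spread between cells. With 1 library per genotype, a gene was counted as higher or lower past 2-fold, taking genes with 50 or more UMIs over the 2 sums. Medians of log2 ratios used a pseudocount of 10 CPM.

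Somatic cells were named "-like" when a class score, the mean log level of its markers, was at least 0.5 and 0.25 above every other class. Of these cells, 731 of 3489 control and 1492 of 7176 *Brca1* vKO cells lay near this threshold. For the germ cell rule, 31 and 4 cells with at least 10000 UMIs had between 2 and 5 UMIs of *Ddx4* and *Dazl* per 10000. A further 372 control and 52 *Brca1* vKO retained barcodes met the *Ddx4* and *Dazl* level but had fewer than 10000 UMIs. They were not counted as germ cells, so the germ cell shares depend on the depth limit. Doublets were kept, except in an alternative that removed the cells most like simulated doublets, 270 (5.32%) control and 715 (8.21%) *Brca1* vKO cells. Among them were 112 of the 716 control and 25 of the 228 *Brca1* vKO germ cells. TMM factors came from edgeR 4.0.16. Gene positions are from GENCODE for GRCm38, the assembly of mm10, and promoters from RefSeq. The genes, the lists and the tests were chosen with earlier results of these data known. Genes named in the text are those of the set, checks of cell identity, pathway genes past 2-fold (at most 6 in each direction) and the 10 genes most like *Gfra1*. Further genes of the pathway list, such as *Dusp6* and the stem cell marker *Foxc2*, are given to show the spread of a list and were chosen after their values were seen.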

Additional observations from a re-analysis of the deposited data

Results flagged for a closer look

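The ratio of germ cells with 6 or more *Kit* UMIs to those with none lay on opposite sides of 1 in the 2 libraries for 4 of the 7 genes with at least 50 UMIs over these classes in each library. It was 1.13 in the *Brca1* vKO library and 0.0428 in the control for *Gfra1*, 1.01 and 0.165 for *Etv5*, 1.07 and 0.0770 for *Id4*, and 1.42 and 0.0941 for *Pax7*. The *Brca1* vKO intervals all included 1, with 0.974 to 1.32 for *Gfra1*, 0.737 to 1.37 for *Etv5*, 0.820 to 1.38 for *Id4* and 0.929 to 2.12 for *Pax7*, so that no direction was settled in that library, where the upper class held 12 cells. With fewer UMIs, *Eomes* (2.35 and 0.107) and *Gdnf* (0.784 and 1.17) also lay on opposite sides. With 1 library per genotype, the difference between the libraries was not tested.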

How the results depend on the processing

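The ratio of *Gfra1* in germ cells without *Kit*, 1.34, was between 1.32 and 1.42 under 12 alternatives. It was 1.11 with mitochondrial UMIs limited to 5%, which left 135 control and 30 *Brca1* vKO cells, 1.47 with *Kit* classes set on thinned cells, and 2.03 over all germ cells, an alternative added after the data were seen. Under the 5% limit the ratio of *Ret* turned to 0.940 and the control ratio of *Gfra1* between the outer *Kit* classes was 0.0213. With *Kit* classes set on thinned cells, no *Gfra1* UMI remained in the upper control class, so this ratio has no value there. The median log2 ratio of the set, 0.44, was 0.88 over all germ cells and 0.17 among germ cells with at least 1 *Gfra1* UMI per 10000, also added later, where *Ret* was 0.840 and, with 1 to 2 *Kit* UMIs, *Etv5* was 0.973. The *Gdnf* ratio of Sertoli-like cells was 1.44 with the stricter class score and 1.29 to 1.35 otherwise. *Lhx1* ranged from 3.53 to 8.39, *Bcl6b* from 2.66 to 4.93 and *Pax7* from 6.71 to 13.8. *Eomes*, 1.70, ranged from 0.330 (on 1 *Brca1* vKO UMI, under the 5% limit) to 4.78 (all germ cells) and was also below 1 with thinned counts (0.747), without germ cells that scored for a somatic class (0.712) and in the cells with *Gfra1* (0.857). In the other *Kit* classes, 341 values moved by less than the counting interval, 58 by more and 1 turned. With 6 or more *Kit* UMIs, restriction to germ cells with at least 1 *Gfra1* UMI per 10000 moved the ratio between libraries from 139 to 6.08 for *Lhx1*, from 25.7 to 1.96 for *Id4*, from 22.9 to 5.99 for *Bcl6b*, from 15.2 to 1.31 for *Ret* and from 8.97 to 1.83 for *Etv5*. No paired analysis was possible because each genotype has 1 library. Among germ cells without *Kit*, the depth does not settle the direction of *Nanos2*, *Eomes* and *Gdnf*.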
